A study of Mus musculus with 29 samples.

Results

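This is an account of 10 chemokine ligand genes of the mouse in 29 RNA-seq libraries. The members were taken as a list of symbols (Ccl2, Ccl3, Ccl4, Ccl5, Ccl6, Ccl9, Ccl12, Cxcl10, Cxcl16 and Cxcl2), and each was matched to 1 of the 48709 Ensembl gene identifiers that each of the 3 deposited count tables holds. The list was chosen with earlier results of these data known. Shares of ligands set beside shares of all genes are therefore a description and not a test. The study inhibited the microRNA miR-99b-5p with a locked nucleic acid oligonucleotide (anti-miR-99b) and compared it with a scrambled oligonucleotide (sc-control), both prepared as lipid nanoparticles per the study's methods. In the first experiment male C57BL/6J mice of 3 months received an injection into the prefrontal cortex (PFC), whose tissue was taken 5 days later (3 anti-miR-99b and 3 sc-control mice). In the second, primary microglia from CD1 pups of postnatal day 1, shaken off mixed glia and grown in L929-conditioned medium, were treated for 2 days (4 and 4 libraries). In the third, CD1 microglia treated for 48 hours were moved onto CD1 cortical neurons of embryonic day 17.5, and RNA of the whole co-culture was taken after another 48 hours (7 and 8 libraries). Only the microglia of the co-culture met the oligonucleotide before the cells were combined. The sc-control groups received an oligonucleotide too, so that no untreated group enters these comparisons. The sources used here do not say which culture libraries come from separate preparations, and p-values measure the spread between the libraries as deposited.

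Chemokines are small secreted proteins that draw leukocytes along a gradient through G protein-coupled receptors. In the brain, microglia, the resident macrophages, are a main source of the CC ligands, and astrocytes and endothelial cells add some of the others under inflammation. Transcription of Cxcl10 is known to follow interferon signalling, and that of Cxcl2, Ccl3 and Ccl4 to follow NF-kB. Ccl2 and Ccl12 attract monocytes through Ccr2. Ccl3, Ccl4 and Ccl5 attract monocytes and T cells, and Ccl6 and Ccl9 are rodent CC ligands that act on Ccr1. Cxcl2 attracts neutrophils through Cxcr2, Cxcl10 attracts T cells and NK cells through Cxcr3, and Cxcl16 is a membrane-anchored ligand of Cxcr6.

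The inhibited microRNA is shown because its seed, bases 2 to 8 and in capitals here, is what pairs with a target mRNA. Its mature sequence is from RefSeq, at chr17:17830194-17830215 on the plus strand of GRCm38.p6.
mmu-miR-99b-5p: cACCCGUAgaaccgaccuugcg
The seed is shared with miR-99a-5p and miR-100-5p. A 7-base match to it (TACGGGT) was found in none of the 12 coding transcripts of the 10 ligands in GENCODE M21, against 2.7% of 21901 coding genes by their longest transcript. The 6-base match (ACGGGT), which 14.8% of the coding genes hold, occurred in 1 ligand, Cxcl10, in the 3′ UTR of 1 of its 2 transcripts on chromosome 5 from 92347605 to 92347610. The 30 bases around this match have it in capitals.
Cxcl10 3′ UTR: attatacctgtcACGGGTaaagctgccaaa
A match is a description of the letters and was not tested as a binding site.

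Promoter sequence was given by RefSeq (GRCm38.p6) for 6 of the ligands, Ccl3, Ccl6, Ccl9, Ccl12, Cxcl10 and Cxcl2, as 250 bases before and 50 after the start site. Ccl2, Ccl4, Ccl5 and Cxcl16 were not matched. Both strands were searched for an NF-kB motif (GGG, any 2 bases, TTTCC) and for an interferon-stimulated response element (ISRE, which is GAAA, any 2 bases, GAAA). None of the matches found overlap each other. The NF-kB letters were in 1.63% and the ISRE letters in 3.44% of 32851 promoters of this length. Cxcl10 held 1 ISRE match, Cxcl2 held 2 NF-kB matches and Ccl9 held 1 NF-kB match, and the other 3 ligands held neither. The stretches of Cxcl10 and Cxcl2 are printed as an example of a match to each motif. Capitals mark the matches, and the bases run from -250 to -151 of the start for Cxcl10 (chr5:92349040-92349139, minus strand) and from -120 to -21 for Cxcl2 (chr5:90903779-90903878, plus strand).
Cxcl10: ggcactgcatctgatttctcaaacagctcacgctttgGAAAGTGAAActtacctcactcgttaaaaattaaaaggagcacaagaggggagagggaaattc
Cxcl2: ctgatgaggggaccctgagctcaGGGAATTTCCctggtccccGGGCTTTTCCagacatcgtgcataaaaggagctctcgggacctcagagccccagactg
The Ccl9 match, on the opposite strand to the gene, lies 35 bases before its start (chr11:83578652-83578681).
Ccl9: tttgaactttGGAAAGCCCCaagtcacctt
No match in a window says only that these letters are not there.

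Most of the ligand genes lie on chromosome 11 of GRCm38, and Cxcl2 and Cxcl10 lie on chromosome 5. Ccl3 (ENSMUSG00000000982, 83647844 to 83649355) and Ccl4 (ENSMUSG00000018930, 83662584 to 83664683) are neighbours 13.2 kb apart on opposite strands. Ccl5 (ENSMUSG00000035042, 83525778 to 83530518), Ccl9 (ENSMUSG00000019122, 83572919 to 83578636) and Ccl6 (ENSMUSG00000018927, 83587882 to 83593087) lie next to them on the minus strand. Ccl2 (ENSMUSG00000035385, 82035571 to 82037453) and Ccl12 (ENSMUSG00000035352, 82101845 to 82103400) are 64.4 kb apart on the plus strand, and Cxcl16 (ENSMUSG00000018920, 70453983 to 70459984) lies farther off on the same chromosome. Cxcl2 (ENSMUSG00000058427, 90903871 to 90905938) and Cxcl10 (ENSMUSG00000034855, 92346638 to 92348889) are the chromosome 5 genes. Values are sums over all exons of a gene. Cxcl16 shares 552 exon bases with Zmynd15 and Cxcl10 shares 133 with Art3, both on the opposite strand, and the strand setting of the counting is not given in the sources used here, so part of their reads could belong to the partner. Of the 50-base stretches of Cxcl2, 5.84% also occur in Cxcl3, and no such stretch of Ccl2, Ccl3, Ccl4, Ccl5, Ccl6 or Ccl12 occurs in another gene.

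Libraries held 24482309 to 36475236 counted reads in the PFC, 21324156 to 35013400 in the microglia and 23269839 to 37901110 in the co-culture. Levels are given as CPM, the read count scaled by library size with TMM factors, and 1 read was worth 0.0279 to 0.0408 CPM in the PFC. The precursor gene Mir99b had 0 to 2 reads per library, which says nothing of the mature microRNA, since the kit selects polyadenylated RNA. The summed level of 10 microglial markers was 9166 to 9622 CPM in the microglia, 421 to 559 CPM in the PFC and 120 to 144 CPM in the co-culture, where 7 neuronal markers summed to 5834 to 6134 CPM. In bulk RNA a change in the number of cells of a type and a change in RNA per cell cannot be told apart.

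In the sc-control libraries every ligand had its highest mean CPM in microglia, by a wide margin over the co-culture for most and by under 2-fold for Ccl5 and Cxcl10. Compared per kb of the longest coding transcript, Ccl4 (199.997 ± 11.0 CPM per kb, SD, n = 4) and Ccl3 (187 ± 5.95) led in sc-control microglia, and their ranges overlapped. Cxcl16 (109 ± 7.31) came next, followed by Ccl9 (76.6 ± 3.37) and Ccl6 (68.5 ± 9.31), which overlapped each other. Below them stood Ccl2 (22.9 ± 1.47), Ccl5 (15.0 ± 1.26), Ccl12 (9.41 ± 0.614), Cxcl10 (5.32 ± 0.590) and Cxcl2 (4.27 ± 0.340), none of which overlapped its neighbour. In the co-culture the order was another one. Ccl3 (11.4 ± 1.601 CPM per kb, SD, n = 8), Ccl5 (9.14 ± 0.7099) and Ccl4 (7.70 ± 0.859) led and overlapped in turn. Cxcl10 (3.37 ± 0.507), Ccl2 (2.82 ± 0.584) and Ccl9 (2.07 ± 0.280) followed as a second overlapping run, and Cxcl16 (1.36 ± 0.155), Ccl12 (0.607 ± 0.307), Cxcl2 (0.497 ± 0.117) and Ccl6 (0.425 ± 0.114) stood last. In the PFC no ligand was above 2.49 CPM per kb on average, with Ccl12 (2.49 ± 0.623, SD, n = 3) and Ccl5 (2.48 ± 1.34) first, Cxcl10 (1.41 ± 0.4931), Cxcl16 (1.40 ± 0.404) and Ccl6 (1.40 ± 0.417) together behind them, and all neighbours in the order overlapping except Ccl6 against Ccl3 and Ccl2 against Cxcl2. Cxcl2 had 1 read in 1 of the 3 sc-control mice and 0 in the others.

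**Figure D1:**
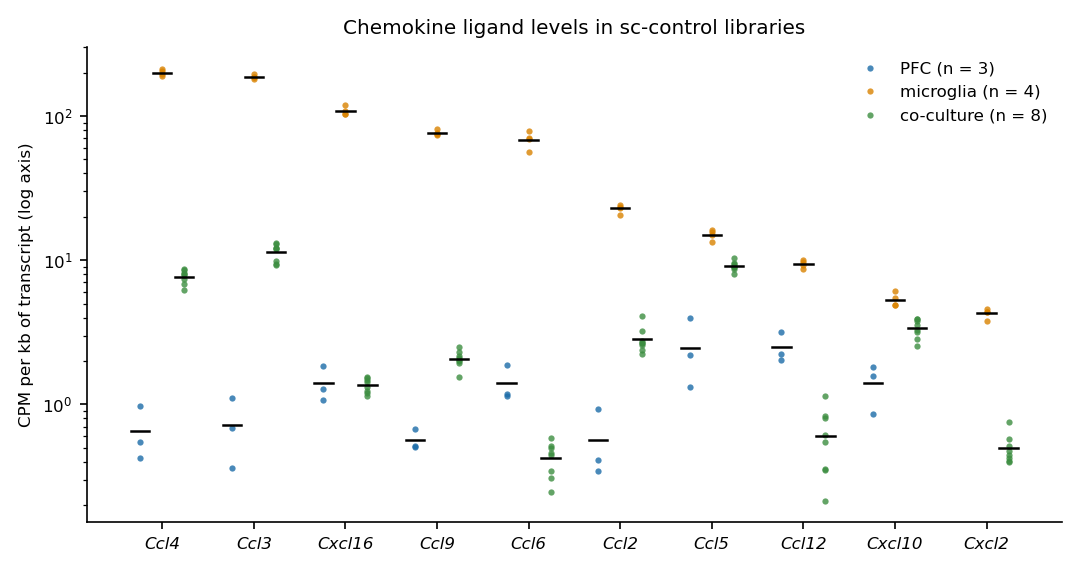
Level of each ligand in the sc-control libraries, in CPM per kb of transcript on a log axis, with one point per library and a bar at the mean of each group. The order runs from the highest to the lowest level in microglia and every ligand has its lowest points in the PFC or in the co-culture. Cxcl2 in the PFC is not drawn, since 2 of its 3 libraries are at 0.

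A joint edgeR fit of the 15 sc-control libraries tested the levels between materials, at an adjusted p under 0.05 and a log2FC beyond 1. Strain, age and preparation differ along with the material and cannot be told apart from it. All 10 ligands were higher in microglia than in PFC, where 26.4% of the 18274 genes tested were higher and 37% lower. The log2FC was 8.44 for Ccl4 (SE 0.11, adjusted p = 7.29e-29) and 8.24 for Ccl3 (SE 0.14, adjusted p = 9.70e-27), whose levels were 143 CPM in microglia and 0.550 CPM in PFC. It was least for Ccl5 (2.82), Ccl12 (2.12) and Cxcl10 (2.11, 7.199 against 1.91 CPM). Cxcl2 was at least 264-fold higher in microglia than in PFC, taking 3 reads over the 3 PFC libraries as the floor. Against the co-culture, 8 of the ligands were higher in microglia, where 24.3% of genes were higher and 35.2% lower. Ccl6 had the largest difference (log2FC 7.54, SE 0.11, 98.6 against 0.612 CPM), ahead of Cxcl16 (6.52, 294 against 3.66 CPM). Ccl5 (0.92, 7.98 against 4.86 CPM) and Cxcl10 (0.86, 7.199 against 4.56 CPM) did not reach the fold limit, although no library of one material overlapped the other. In the co-culture against PFC, 7 ligands were higher and 2 lower, with 14.9% of genes higher and 20.5% lower. The lower ones were Ccl12 (log2FC -1.98, SE 0.25, 0.326 against 1.34 CPM) and Ccl6 (-1.72, SE 0.25, 0.612 against 2.01 CPM). Cxcl16 did not pass (-0.03, SE 0.13, 3.66 against 3.79 CPM), and its sign turned to 0.23 without PFC sc-control replicate 4.

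Set against the microglial markers of the same libraries, the ligands fell apart further. For every 100.0 CPM of the 10 summed markers, sc-control microglia held 0.0853 CPM of Ccl5 and 0.0771 CPM of Cxcl10, and sc-control co-cultures held 3.85 CPM and 3.60 CPM. For Cxcl16 the values were 3.14 and 2.89 CPM, and for Ccl6 1.06 and 0.484 CPM. Ccl3 stood at 1.53 CPM in microglia and 6.86 CPM in the co-culture. Which cells of the co-culture made these transcripts was not tested.

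In the co-culture, Ccl3, Ccl4, Ccl5, Cxcl2 and Ccl9 were upregulated after anti-miR-99b, and none of the ligands was downregulated. The threshold was an adjusted p under 0.05 and a log2FC beyond 0.1 (edgeR's quasi-likelihood test, Benjamini-Hochberg over 16193 genes), which 0.846% of genes passed upwards and 0.556% downwards. The log2FC was above 0 for all 10 ligands, with a median of 0.26, beside 51.6% of all genes and a median of 0.003 over all genes. An unadjusted p under 0.05 upwards was found for the 5 called ligands and for 6.4% of genes. For Ccl3, Ccl4, Ccl5 and Cxcl2 each anti-miR-99b library was above each sc-control library, which was so for 0.303% of genes.

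Ccl5, the T cell and monocyte attractant, ranged from 7.27 to 10.00 CPM in the 7 anti-miR-99b co-cultures (median 8.25) and from 4.25 to 5.54 CPM in the 8 sc-control ones (median 4.81). The groups lay well apart, and the mean was 8.49 ± 0.921 against 4.86 ± 0.378 CPM (SD). The log2FC was 0.79 (SE 0.07, edgeR adjusted p = 1.05e-07), a fold of 1.73, and Ccl5 was the second of all genes by p. The two-sided exact permutation test of mean CPM gave the smallest p it can for 7 against 8 libraries (1.55e-04), 5.18e-04 after Benjamini-Hochberg over the 10 ligands.

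Ccl3, which draws monocytes and T cells, ranged from 12.9 to 15.2 CPM after anti-miR-99b (median 13.7) and from 7.04 to 10.1 CPM after sc-control (median 9.18). The lowest treated co-culture was thus above the highest control. The log2FC was 0.67 (SE 0.07, edgeR adjusted p = 3.36e-06), a fold of 1.59. Ccl4, its neighbour on chromosome 11 with a like role, ranged from 6.80 to 7.37 CPM (median 7.21) against 4.09 to 5.73 CPM (median 5.23). Here the treated libraries were tightly grouped, with an SD of 0.258 CPM beside 0.567 CPM in the controls. The log2FC of Ccl4 was 0.48 (SE 0.06, edgeR adjusted p = 6.75e-05). Both genes reached the same smallest p of 1.55e-04 in the exact permutation test.

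Cxcl2, the neutrophil attractant, was low in the co-culture, with 36 to 69 reads per anti-miR-99b library and 21 to 53 per sc-control library. It ranged from 1.52 to 2.29 CPM (median 1.54) after anti-miR-99b and from 0.740 to 1.39 CPM (median 0.853) after sc-control. Replicate 10 was the highest treated co-culture and replicate 11 the highest control, and the groups did not overlap. The log2FC was 0.86 (SE 0.14, edgeR adjusted p = 0.00116, exact permutation p = 3.11e-04), a fold of 1.82. Cxcl2 did not pass with the replicate number as a block (log2FC 0.63, edgeR adjusted p = 0.161). Ccl9, a Ccr1 ligand, ranged from 6.93 to 9.39 CPM (median 7.33) against 4.66 to 7.49 CPM (median 6.18), and the groups overlapped. Its log2FC of 0.31 (SE 0.08, edgeR adjusted p = 0.0460) stood at the threshold, and it failed with the lane as a block (adjusted p = 0.106) and without any 1 of 10 of the 15 libraries, with adjusted p-values from 0.0175 to 0.1102 over all 15. These 10 were the treated co-cultures 3, 7, 10 and 11 and the controls 2, 4, 5, 6, 8 and 12.

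The other 5 ligands did not pass in the co-culture. Cxcl10 (interferon-induced) was at 3.60 to 7.63 CPM against 3.45 to 5.31 CPM (log2FC 0.22, SE 0.12, edgeR adjusted p = 0.435) and Cxcl16 at 3.43 to 4.75 CPM against 3.06 to 4.15 CPM (log2FC 0.16, SE 0.08, edgeR adjusted p = 0.435). Ccl2, the monocyte attractant, was spread widely, from 1.75 to 4.38 CPM against 1.82 to 3.31 CPM, and its log2FC of 0.14 (SE 0.18) turned to -0.06 without anti-miR-99b replicate 10. Ccl6 and Ccl12 had 3 to 25 reads per library, with log2FC of 0.21 (SE 0.18) and 0.18 (SE 0.26). A change as large as that of Ccl4 (0.48) lies within 2 standard errors of 0 for Ccl12 and was not detectable at this depth.

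**Figure D2:**
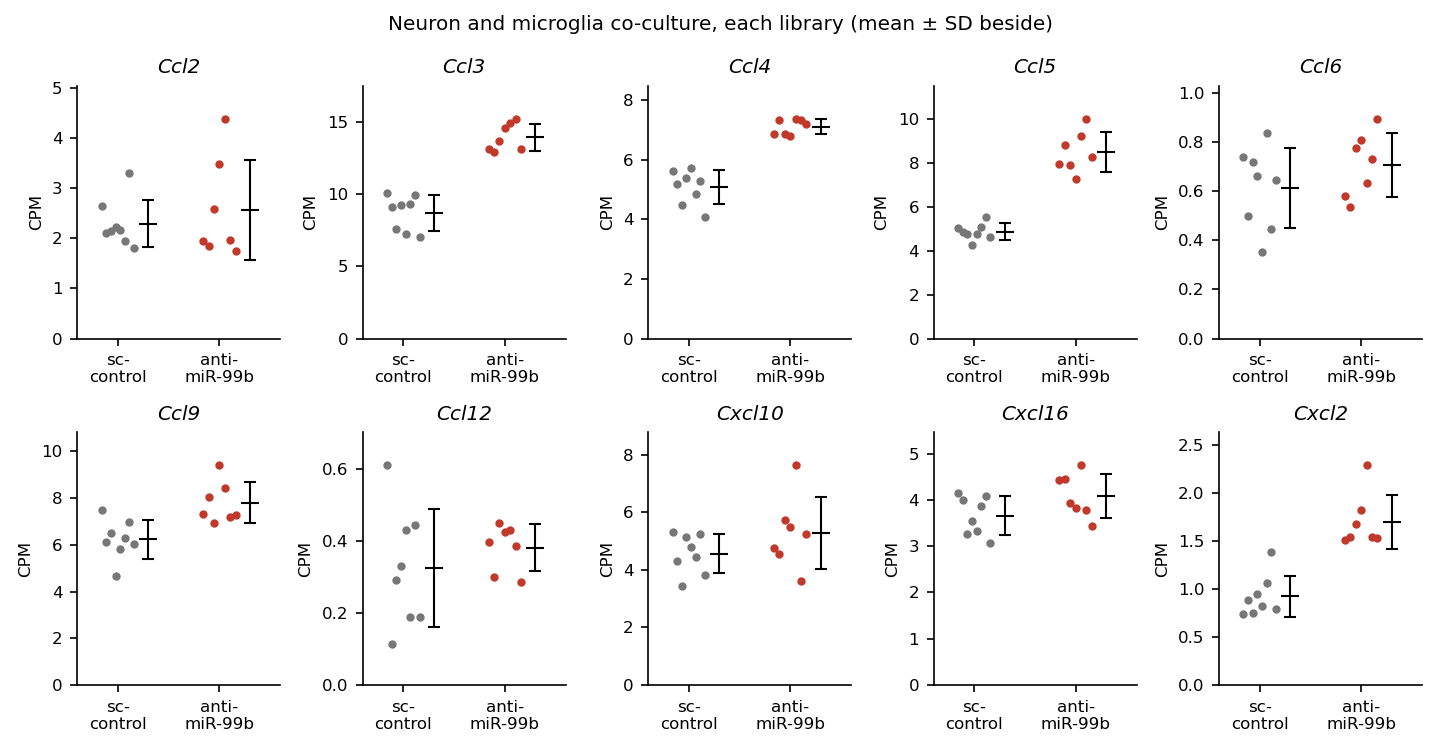
Level of each ligand in every co-culture library, in CPM on linear axes from 0, with the mean and SD of the group beside the points (sc-control grey, n = 8, anti-miR-99b red, n = 7). The groups are separate for Ccl3, Ccl4, Ccl5 and Cxcl2, and they overlap for Ccl9 and the other ligands.

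The libraries of the co-culture were sequenced in 4 lanes, each with both groups. Within lanes, the mean after anti-miR-99b was 1.43 to 1.80 times that after sc-control for Ccl5, 1.36 to 1.71 times for Ccl3, 1.31 to 1.56 times for Ccl4 and 1.64 to 1.99 times for Cxcl2. Some markers of microglia were also higher. Their summed level was 125 to 144 CPM after anti-miR-99b and 120 to 140 CPM after sc-control, with 10 of 10 genes tested and 3 called higher, Csf1r (log2FC 0.34), Cx3cr1 (0.39) and Trem2 (0.70). The sums overlapped between the groups, and 8 of the 10 markers had a log2FC above 0, the exceptions being Itgam (-0.24) and Sall1 (-0.10). The 5 border macrophage markers summed to 13.5 to 16.7 CPM after anti-miR-99b (mean 15.2) and to 9.77 to 13.6 CPM after sc-control (mean 11.2). Of these 5 markers, 2 passed the filter and Ms4a7 was higher (log2FC 0.50, edgeR adjusted p = 3.93e-04), while Cd163, Lyve1 and F13a1 stayed at or under 0.358 CPM in every library. The ligands were not set against this sum. Per 100.0 CPM of summed microglial markers, Ccl5 stood at 6.27 against 3.85 CPM, Ccl3 at 10.3 against 6.86 CPM and Ccl4 at 5.25 against 4.01 CPM, and for these 3 the groups still did not overlap. Cxcl2 stood at 1.26 against 0.734 CPM, with overlap. The part of the marker change in the ligand levels was otherwise not tested. Monocyte, neutrophil and T or NK cell markers summed to at most 0.304, 0.199 and 0.840 CPM per library.

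In microglia cultured alone, Cxcl10 was the one ligand that passed, upwards. The threshold was an adjusted p under 0.1 and a log2FC beyond 0.1, which 0.435% of 14953 genes passed upwards and 0.0535% downwards. Cxcl10 was at 9.76, 8.35, 10.2 and 9.22 CPM after anti-miR-99b and at 6.60, 8.26, 6.57 and 7.37 CPM after sc-control. The groups did not overlap, by a gap as small as that between 8.35 and 8.26. The log2FC was 0.38 (SE 0.08, edgeR adjusted p = 0.0421), and the exact permutation test gave 0.0286, the smallest p for 4 against 4 libraries (0.143 after Benjamini-Hochberg over the 10 ligands). The call was lost without any 1 of 5 libraries, controls 4 or 6 or treated libraries 1, 4 or 5, with log2FC of 0.33 to 0.45 and adjusted p-values of 0.00884 to 0.311 over all 8. In these 5 fits, in that order, 0, 6, 11, 28 and 2 genes of the whole table passed upwards, against 65 with all libraries.

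Ccl12 was at 6.16, 5.87, 7.37 and 6.19 CPM after anti-miR-99b and at 5.18, 4.99, 4.63 and 5.41 CPM after sc-control. Its groups did not overlap, as those of 1.66% of genes, but its log2FC of 0.34 (SE 0.09) had an adjusted p of 0.164 in the edgeR test. Per 100.0 CPM of summed microglial markers, Cxcl10 stood at 0.0987 against 0.0771 CPM, and its groups overlapped. Ccl12 stood at 0.0673 against 0.0540 CPM, without overlap. Ccl2, the other Ccr2 ligand, had a log2FC of 0.14 (SE 0.06, edgeR adjusted p = 0.645). For Ccl3, Ccl4 and Ccl5 the groups overlapped and the log2FC was below 0. Ccl3 was at 142, 144, 144 and 141 CPM against 143, 149, 138 and 143 CPM, a log2FC of -0.003 (SE 0.03), and Ccl4 had a log2FC of -0.01 (SE 0.04). Ccl5 had one of -0.09 (SE 0.09), with 6.72 to 8.60 CPM against 7.07 to 8.59 CPM. Ccl9 (0.02), Ccl6 (0.01), Cxcl16 (0.05) and Cxcl2 (0.13) did not pass either, and 7 of the 10 ligands had a log2FC above 0, beside 51.6% of genes. Cxcl10, Ccl12 and Ccl2 had an unadjusted p under 0.05, which 3.4% of genes had upwards.

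**Figure D3:**
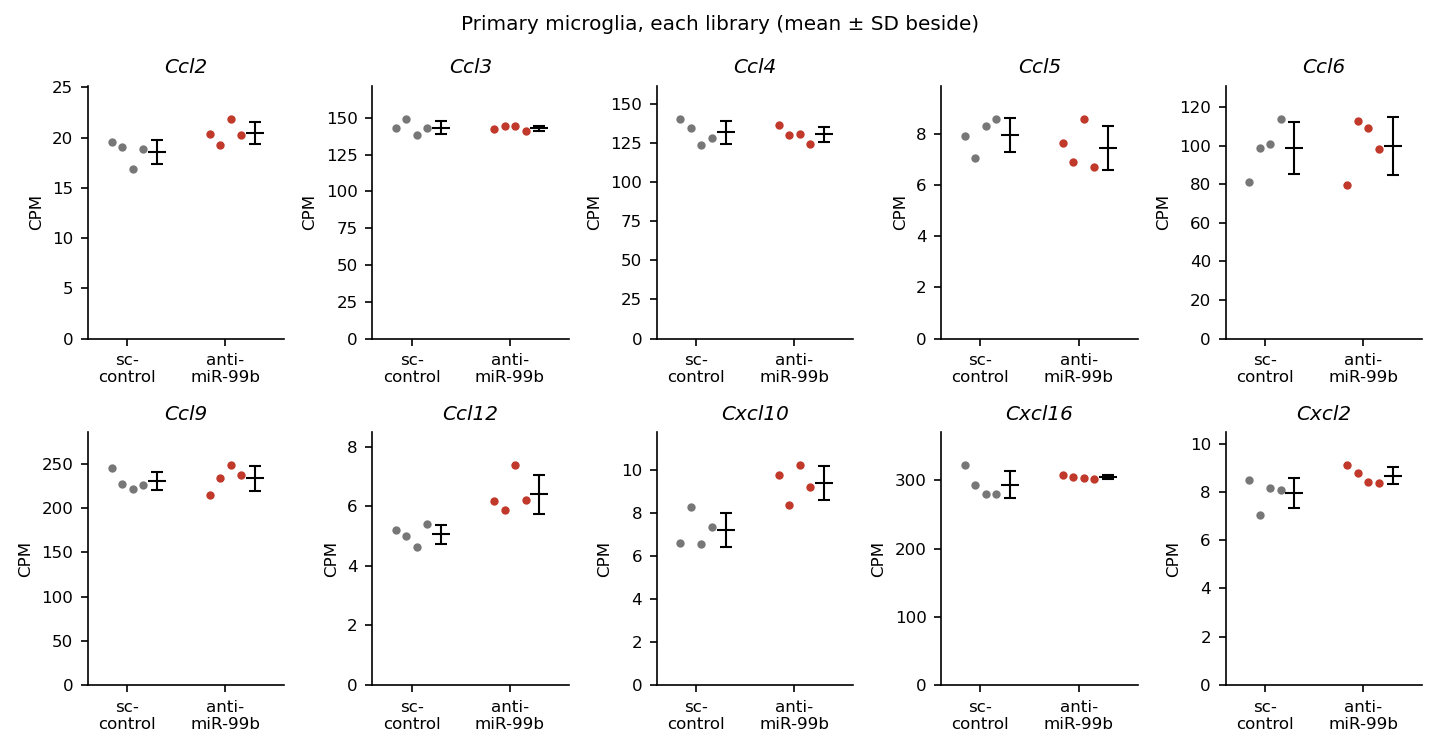
Level of each ligand in every library of microglia cultured alone, in CPM on linear axes from 0, with the mean and SD of the group beside the points (sc-control grey, anti-miR-99b red, n = 4 each). Cxcl10 and Ccl12 are separate, and the groups of Ccl3 and Ccl4 overlap.

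In the PFC, no ligand passed the threshold of an adjusted p under 0.1 and a log2FC beyond 0.2, which 0.0864% of 17364 genes passed upwards and 0% downwards. All of the 9 ligands tested had a log2FC above 0, with a median of 0.76, where 50.6% of all genes did and the median over genes was 0.003. Cxcl2, with 0 to 2 reads per mouse, was under the filter for low counts and was not tested. Without adjustment, 6 of the 9 had a p under 0.05 upwards, beside 5.17% of genes, namely Cxcl10, Ccl5, Cxcl16, Ccl12, Ccl9 and Ccl2. DESeq2's Wald test called 2 of them, Cxcl10 (adjusted p = 0.00852) and Ccl5 (adjusted p = 0.0261), and it called 85 of the 17364 genes higher.

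Cxcl10 was at 3.63, 3.61 and 7.85 CPM after anti-miR-99b and at 2.12, 1.16 and 2.44 CPM after sc-control. Anti-miR-99b replicate 3 stood highest, and the groups did not overlap. The log2FC was 1.39 (SE 0.34, edgeR adjusted p = 0.342), a fold of 2.62 that the exact permutation test gave 0.1, the smallest p for 3 against 3 mice. Ccl5 was at 3.75, 3.78 and 2.497 CPM against 0.698, 1.16 and 2.10 CPM, with a log2FC of 1.33 (SE 0.33, edgeR adjusted p = 0.350). Its groups did not overlap either.

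Ccl2 was at 0.898, 0.928 and 0.788 CPM (22 to 26 reads) against 0.335, 0.282 and 0.757 CPM (8 to 26 reads), a log2FC of 0.90 (SE 0.35, edgeR adjusted p = 0.648). Ccl9 was at 2.04, 2.39 and 2.99 CPM against 1.53, 1.51 and 2.04 CPM, a log2FC of 0.55 (SE 0.20, edgeR adjusted p = 0.639). Both were above all controls in each treated mouse, by small gaps. The lowest treated and highest control values were 2.040 and 2.037 CPM for Ccl9 and 0.788 and 0.757 CPM for Ccl2. In the PFC 1 read was worth 0.0279 to 0.0408 CPM. Groups that did not overlap upwards were thus found for 4 of the 9 ligands, and for 7.51% of genes. Ccl12 (log2FC 0.76, SE 0.24) and Cxcl16 (0.76, SE 0.24) overlapped, with sc-control replicate 4 the highest control, and so did Ccl3 (0.47, SE 0.38), Ccl6 (0.27, SE 0.22) and Ccl4 (0.15, SE 0.37).

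**Figure D4:**
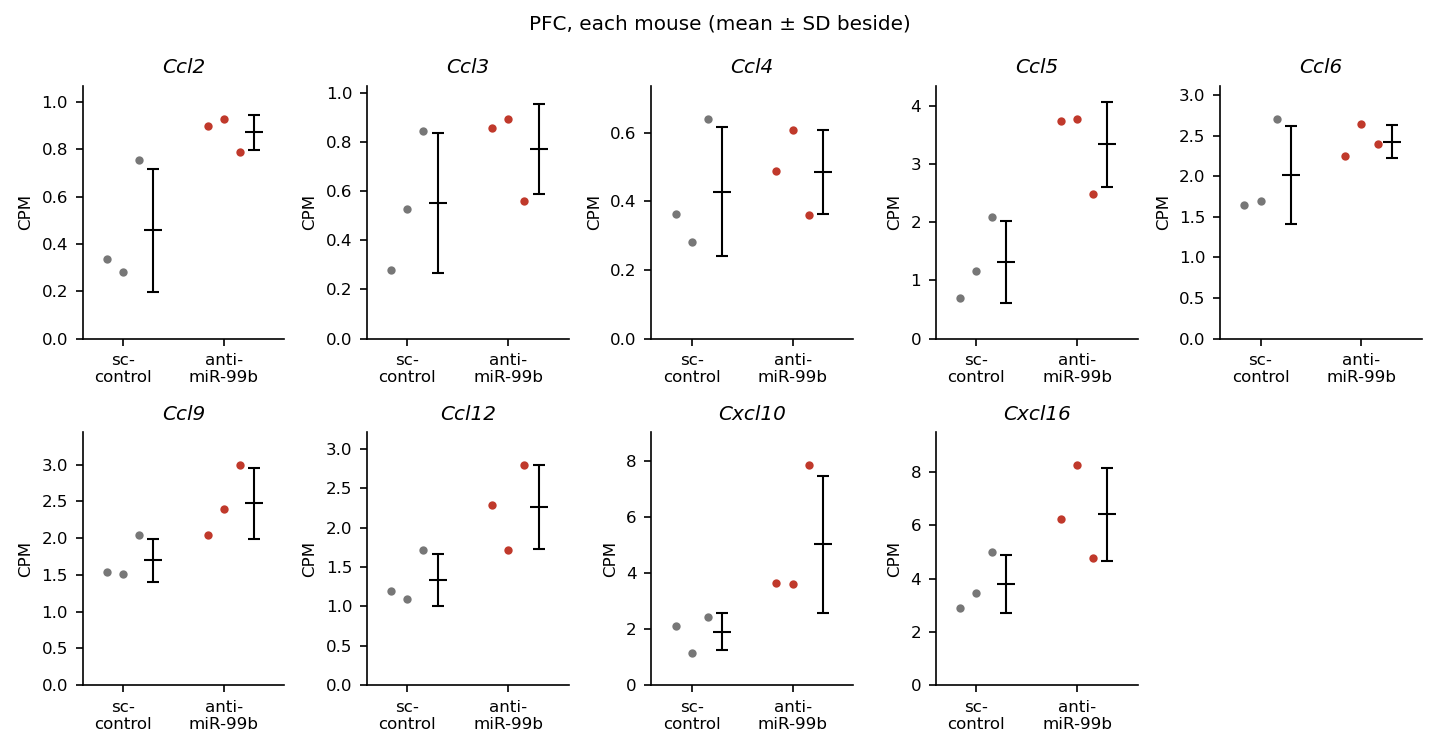
Level of the 9 tested ligands in every mouse of the PFC experiment, in CPM on linear axes from 0, with the mean and SD of the group beside the points (sc-control grey, anti-miR-99b red, n = 3 each). Cxcl10, Ccl5, Ccl2 and Ccl9 are separate, Ccl2 and Ccl9 by a narrow gap, and the highest control point is the same mouse in each panel.

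One control mouse, sc-control replicate 4, was the highest of its group in every ligand, and it also had the highest microglial marker sum of the group (548 CPM, beside 421 and 427). Without it, Ccl5 (log2FC 1.86, edgeR adjusted p = 0.0224), Cxcl16 (1.02, adjusted p = 0.0979) and Ccl2 (1.47, adjusted p = 0.0994) passed the threshold. In that fit 195 of 17630 genes passed upwards, against 15 of 17364 with all mice. Sc-control replicate 4 was sequenced in lane 7 with anti-miR-99b replicate 3, and the other 4 mice in lane 6. The ratio of anti-miR-99b to sc-control was 3.21 in lane 7 and 2.205 in lane 6 for Cxcl10 and 1.19 and 4.05 for Ccl5. It was below 1 in lane 7, with 1 mouse of each group, for Cxcl16 (0.952), Ccl6 (0.886), Ccl3 (0.662) and Ccl4 (0.564), which stood at 2.28, 1.46, 2.17 and 1.70 in lane 6. For the other 5 tested ligands it was above 1 in each lane. Cxcl10 passed with the lane as a block (adjusted p = 0.0422), where 73 of 17364 genes passed upwards. The 10 microglial markers summed to 499 to 559 CPM in treated mice and 421 to 548 CPM in the controls, 9 of 10 with a log2FC above 0 and none called. Monocyte markers summed to 3.42 to 4.96 CPM against 1.76 to 4.34 CPM, and 5 neutrophil markers to 1.06 to 2.27 CPM against 0.775 to 1.34 CPM. Of these neutrophil genes 2 were tested, S100a8 (log2FC 1.098) and S100a9 (0.48), and neither was called, while Ly6g, Retnlg and Mmp8 had group means of at most 0.0615 CPM. Per 100.0 CPM of microglial markers, the ratio of the group means was 2.35 for Cxcl10, 2.32 for Ccl5, 1.75 for Ccl2 and 1.29 for Ccl9, and these groups did not overlap. For Ccl4 the ratio was 1.02. The share of all genes without overlap, 7.51% upwards in CPM, was not computed on this scale.

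The test of the difference between treatment effects, in 1 fit of all 29 libraries at an adjusted p under 0.1, found 5 ligands whose log2FC differed between experiments. Material and time since the oligonucleotide differ along with the experiment. Of the 10 microglial markers, 3 were called higher in the co-culture and 0 in microglia alone, with 8 above 0 in each. A change in the share of microglia and a change per cell cannot be told apart in these contrasts. The effect on Ccl3 was larger in the co-culture than in microglia alone by 0.65 on the log2 scale (SE 0.09, edgeR adjusted p = 1.58e-04), that on Ccl4 by 0.47 (SE 0.08, adjusted p = 0.00367) and that on Ccl5 by 0.87 (SE 0.16, adjusted p = 0.00985). Such a difference was called for 0.116% of the 18963 genes. Cxcl2 differed by 0.71 (SE 0.17), with an adjusted p of 0.102. It passed with DESeq2 (adjusted p = 0.0119), with RLE factors (0.0892), with no filter (0.0250) and without any 1 of 6 of the 29 libraries. Between PFC and microglia, Ccl5 differed by 1.41 (SE 0.25, adjusted p = 0.00388) and Cxcl16 by 0.68 (SE 0.16, adjusted p = 0.0447), beside 0.933% of genes. Between PFC and co-culture, Cxcl10 differed by 1.18 (SE 0.30, adjusted p = 0.0459), beside 1.95% of genes. Cxcl16 did not pass there (0.60, SE 0.18, adjusted p = 0.109), but did with DESeq2 (adjusted p = 0.0310) and with no filter (0.0155). For Cxcl10 in the co-culture against microglia the difference was -0.18 (SE 0.22, adjusted p = 0.980). Ccl2, Ccl6, Ccl9 and Ccl12 passed in none of the 3 contrasts.

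**Figure D5:**
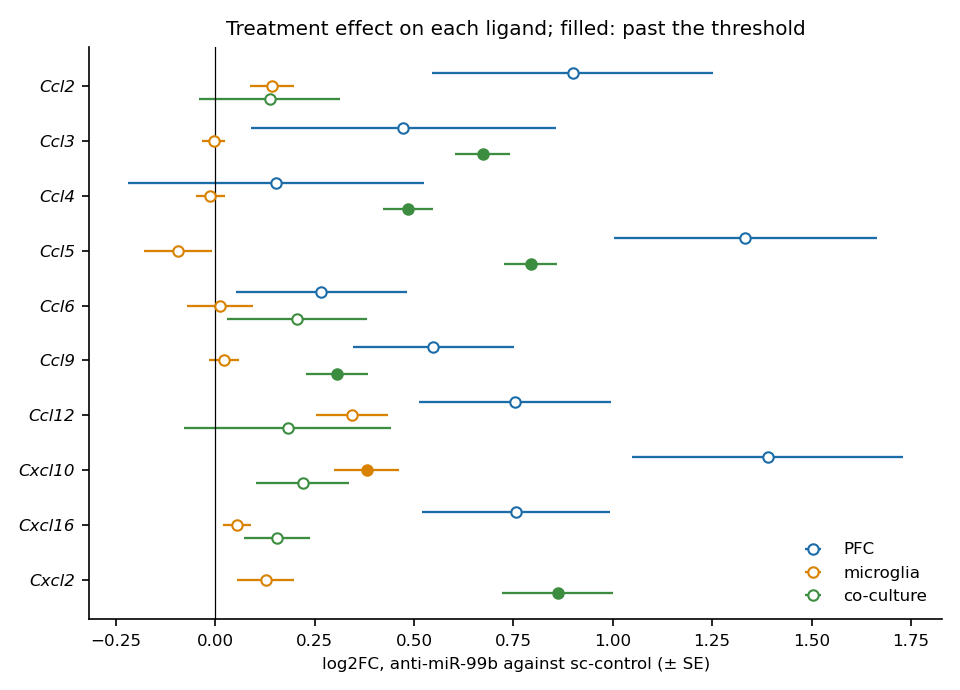
The log2FC of each ligand after anti-miR-99b, with its standard error, in the PFC (blue), microglia (orange) and co-culture (green). Filled points passed the threshold of their experiment, which are Cxcl10 in microglia and Ccl3, Ccl4, Ccl5, Ccl9 and Cxcl2 in the co-culture. The PFC estimates reach 1.39 and have wide errors, and Ccl3, Ccl4 and Ccl5 lie near 0 in microglia alone.

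The other genes of the chemokine system were taken from fixed lists. Of 25 other chemokine ligands, 12 were tested in the PFC, 9 in microglia and 10 in the co-culture, and none was called by edgeR or DESeq2 in any experiment. An unadjusted p under 0.05 was found for 4, 5 and 0 of them. Ccl8, which draws monocytes, was at 0.657 to 0.775 CPM against 0.307 to 0.387 CPM in the PFC (log2FC 1.01, SE 0.27, edgeR adjusted p = 0.375), and Cxcl13, which draws B cells, was at 19.3 to 23.5 CPM against 17.3 to 19.0 CPM in microglia (log2FC 0.24, SE 0.06, edgeR adjusted p = 0.105). Their groups did not overlap. In microglia 1 ligand of the list passed without sc-control replicate 2, without anti-miR-99b replicate 3, with no filter or with RUVs. In the PFC 1 was called lower with no filter and 1 higher with the replicate block. The most abundant were Cx3cl1, the neuronal fractalkine, at 1053 CPM after anti-miR-99b against 1045 CPM after sc-control in the PFC and 268 against 276 CPM in the co-culture, and Cxcl14, at 302 against 289 CPM in microglia. Pf4, a platelet and macrophage ligand, was at 34.4 against 32.1 CPM in microglia, and Cxcl14 at 91.6 against 86.5 CPM in the PFC and 30.8 against 30.8 CPM in the co-culture.

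Of 23 chemokine receptors, 7 were tested in the co-culture and 2 were higher. Cx3cr1, the fractalkine receptor of microglia, rose from 9.28 ± 1.63 to 12.2 ± 0.837 CPM (log2FC 0.39, SE 0.08, edgeR adjusted p = 0.0107). Its call was lost with the replicate block (edgeR adjusted p = 0.0632). Ccrl2, an atypical receptor that binds chemerin, rose from 0.932 ± 0.158 to 1.45 ± 0.334 CPM (log2FC 0.61, SE 0.15, edgeR adjusted p = 0.0317), a call that was lost without any 1 of 8 libraries. In PFC and microglia 12 receptors each were tested and none was called by edgeR or DESeq2, with an unadjusted p under 0.05 for 1 and 2, and 1 passed in the PFC without sc-control replicate 4. The most abundant in the PFC were Cx3cr1 (66.0 against 59.7 CPM) and Ackr1 (35.4 against 35.3 CPM), and in microglia Cx3cr1 stood at 1462 against 1450 CPM. Of 6 genes for shedding and trimming of chemokines, 6 were tested in the PFC and 5 each in the cultures, and none was called by edgeR or DESeq2 or had an unadjusted p under 0.05. Adam10, which sheds Cxcl16, was at 87.0 against 101 CPM in the PFC, 442 against 448 CPM in microglia and 129 against 132 CPM in the co-culture, and the protease Adam17 at 25.2 against 22.9, 551 against 541 and 34.8 against 33.5 CPM.

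Of 16 NF-kB pathway genes, all tested in the co-culture, 2 were higher there. Tnf, the cytokine, rose from 5.73 ± 0.689 to 7.89 ± 0.836 CPM (log2FC 0.46, SE 0.07, edgeR adjusted p = 0.00117) and the kinase Ikbke from 7.89 ± 0.467 to 9.92 ± 0.856 CPM (log2FC 0.33, SE 0.06, edgeR adjusted p = 0.00202). The call of Tnf was lost with the replicate block (edgeR adjusted p = 0.0861). None was called by edgeR or DESeq2 in the PFC or in microglia, where an unadjusted p under 0.05 was found for 4 of 15 and 3 of 16. In the PFC 1 passed without sc-control replicate 4, and in microglia 3 passed without sc-control replicate 2. In the PFC Ikbke was at 3.45 to 4.96 CPM against 2.40 to 2.91 CPM (log2FC 0.67, SE 0.17, edgeR adjusted p = 0.365). The most abundant genes of the list in the PFC were Ikbkb, at 66.3 against 64.4 CPM, and Chuk, at 47.2 against 48.2 CPM, and in microglia Nfkb1, at 227 against 221 CPM, and Ikbke, at 122 against 120 CPM. Of 16 interferon pathway genes, 15 were tested in each experiment. In microglia the groups overlapped for all 15, where 1.66% of genes did not overlap upwards. By the edgeR test 8 were higher there, the first 5 by log2FC being Ifit3 (0.71, SE 0.13, edgeR adjusted p = 0.0238), Ifit1 (0.69), the deubiquitinase Usp18 (0.66), the transcription factor Irf7 (0.65) and the antiviral GTPase Mx1 (0.57). This count was 0 with DESeq2, 0 without sc-control replicate 4 or anti-miR-99b replicate 5, 1 without sc-control replicate 6 or anti-miR-99b replicate 1, and 4 without anti-miR-99b replicate 4. In the co-culture none passed by edgeR, where 14 of 15 had a log2FC above 0, beside 51.6% of all genes. An unadjusted p under 0.05 was found for 4, where 6.4% of all genes had one upwards. There 1 passed with DESeq2, 1 with no filter and 2 with RUVs, and 1 or 2 passed without any 1 of 5 libraries (treated co-cultures 2, 7 or 12 and controls 1 or 12). The most abundant in the co-culture, Ifngr2 and Ifnar1, were at 109 against 105 CPM and 74.8 against 74.6 CPM. In the PFC the edgeR count was 0 as well. There 13 of 15 had a log2FC above 0, with a median of 0.40, beside 50.6% of all genes. An unadjusted p under 0.05 was found for 10, where 5.17% of all genes had one upwards. The groups of 6 did not overlap upwards, beside 7.51% of all genes. In the PFC 3 passed with DESeq2, 7 with the lane as a block, 9 with no filter, 10 with RUVs and 7 without sc-control replicate 4. The most abundant there, Ifnar1 and Ifngr2, were at 51.2 against 53.3 CPM and 43.7 against 46.2 CPM.

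The genes whose pattern was most like that of a ligand were named by the Pearson correlation of log2(CPM + 0.5), after the mean of each experiment was taken out, over the 29 libraries and 13649 genes that passed the filter in all experiments. The libraries share their treatment, so the values describe a pattern that includes it. Ccl3 was most like Cd68 (r = 0.92), Csf1r (0.91) and Lyz2 (0.90), Ccl4 most like Cd14 (0.92), Csf1r (0.88) and Spp1 (0.87), and Ccl5 most like C1qa (0.91), Ikbke (0.90) and Lyz2 (0.90). For Cxcl16 they were Cd72 (0.92), Cd300lf (0.91) and H2-Q6 (0.91). For Cxcl10 they were Eif2ak2 (0.85), Rsad2 (0.84) and Gbp3 (0.83), and for Ccl12 Mx1 (0.79), Cd274 (0.78) and Oas1b (0.78). Ccl9 was most like Slfn2 (0.82), Cd274 (0.81) and Slc7a7 (0.80), Ccl2 like Msn, Lcp1 and Clic1 (0.83 each), and Ccl6 like Lag3 (0.71), Il18bp (0.71) and Cst7 (0.65).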

How the data were processed

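RNA of 3 PFC, microglia and co-culture experiments was made into TruSeq RNA v2 libraries and sequenced as 50-base single reads on a HiSeq2000. According to the submitters' processing notes, bcl2fastq 2.20.2, FastQC 0.11.5, STAR 2.5.2b and featureCounts 1.5.1 were used with mm10. The authors deposited raw counts of reads per gene, without normalization. The annotation release and strand setting are not given in the sources used here. Each experiment was fitted alone with edgeR 4.0.16 in R 4.3.3 (TMM factors, filterByExpr, quasi-likelihood test, Benjamini-Hochberg over all genes tested, no covariate). The study names DESeq2, which served as an alternative (version 1.42.0). The thresholds for PFC and co-culture were those of the study, and those for microglia combined them. Standard errors are the log2FC divided by the square root of F. The scripts were tested on simulated data. The ligands and lists were chosen with earlier results of these data known. The gene naming rule was: the 10 ligands, up to 5 called genes per list and experiment or the 2 of highest CPM, the 3 most correlated genes, and overlapping genes. One gene that this rule names is not reported here. Cxcl3, Zmynd15 and Art3 were named as genes that share sequence with a ligand, and the marker genes Csf1r, Trem2, Ms4a7, Cd163, Lyve1, F13a1, Itgam, Sall1, S100a8, S100a9, Ly6g, Retnlg and Mmp8, as well as Ccl8, Cxcl13 and Ikbke in the PFC, were named after their values were seen. Symbols, lengths and coordinates are from GENCODE M21 (GRCm38). Alternatives were RLE or upper-quartile factors, no filter, 1 RUVs factor, lane or replicate block, another threshold and each library left out.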

Additional observations from a re-analysis of the deposited data

Results flagged for a closer look

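Of 40 ligand levels checked in groups of 4 to 8 libraries for a value far from the others, 1 stood out, and chance alone puts about 1 in 20 groups past this limit. Cxcl2 in co-culture anti-miR-99b replicate 10 was at 2.29 CPM, with the other 6 libraries at 1.52 to 1.83 CPM. Without this library the log2FC of Cxcl2 was 0.77, still past the threshold.

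The log2FC after treatment differed between experiments, by the interaction test, in 6 contrasts of 5 ligands. Material, time and the share of microglia cannot be told apart from a change per cell in them. Co-culture exceeded microglia by 0.65 for Ccl3, by 0.47 for Ccl4 and by 0.87 for Ccl5 on the log2 scale. PFC exceeded microglia by 1.41 for Ccl5 and by 0.68 for Cxcl16, and PFC exceeded co-culture by 1.18 for Cxcl10. The contrast of Cxcl16 was not called without PFC anti-miR-99b replicate 2 or sc-control replicate 2, and that of Cxcl10 not without PFC anti-miR-99b replicate 3 or sc-control replicate 2. The other 4 contrasts were called with each of the 29 libraries left out in turn, an alternative chosen after seeing the data.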

How the results depend on the processing

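The co-culture calls of Ccl3, Ccl4 and Ccl5 were made under every alternative run. The count of ligands higher there was 4 or 5, also with each library left out, except with the replicate block (3). Ccl9 and Cxcl2 did not pass with that block. In the PFC the count of 0 became 2 with DESeq2, 4 with no filter on low counts, 2 with RUVs, 1 with the lane block, 6 with the replicate block, 6 with the mice paired crosswise (added once the data had been seen) and 0 to 3 with a mouse left out. In microglia the count of 1 became 2 with no filter, 2 with RUVs, 2 with the replicate block (Ccl6 and Ccl12) and 0 to 3 with a library left out. No alternative called any of the 10 ligands lower after treatment. The baseline counts of 10, 9 and 8 did not change with a library left out, and the last was 10 with no fold limit. The cause of these changes was not tested. The count of genes over the whole table moved as well. In the PFC it went from 15 higher to 85 with DESeq2, 297 with no filter and 192 with RUVs. It was 73 with the lane block and 475 with the replicate block there. In microglia it went from 65 to 33 with DESeq2, 138 with no filter and 87 with the replicate block, where 162 were lower. In the co-culture it went from 137 to 284 with RUVs, 85 with the lane block and 70 with the replicate block.

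The replicate numbers share no stated origin, and libraries with the same number did not deviate together (correlations of -0.285 to 0.048), so the replicate block rests on a number alone. Its sign differed from the reported one for Ccl2 in the co-culture (-0.20) and for Ccl3 (0.0016), Ccl4 (0.0069) and Ccl5 (0.0027) in microglia. Ccl3 in microglia was also above 0 with no filter (0.0010), and the difference of Ccl2 between co-culture and microglia was 0.0035 with DESeq2. With a library left out, the log2FC spanned 0 for Ccl4 in the PFC (-0.046 to 0.56), for Ccl3 (-0.021 to 0.014), Ccl4 (-0.040 to 0.018), Ccl6 (-0.065 to 0.10) and Ccl9 (-0.0079 to 0.059) in microglia, for Ccl2 in the co-culture (-0.060 to 0.25) and for Cxcl16 at baseline between co-culture and PFC (-0.21 to 0.23). The differences between experiments spanned 0 for Ccl4 between PFC and microglia (-0.063 to 0.55), between PFC and co-culture for Ccl3 (-0.55 to 0.28), Ccl4 (-0.54 to 0.072), Ccl6 (-0.082 to 0.34) and Cxcl2 (-0.29 to 2.30), and between co-culture and microglia for Ccl2 (-0.22 to 0.093) and Ccl12 (-0.30 to 0.014). Levels under about 1 CPM rest on fewer than 40 reads per library.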
